A study of Mus musculus with 6 samples.

Results

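The interleukin-1 family was followed through 10 genes of mouse melanoma grafts grown in the hind footpad or in the flank skin. The genes were chosen by name, as the rows of the deposited count table for the ligands Il1a, Il1b, Il18 and Il33, the antagonist Il1rn, the receptors Il1r1, Il1r2, Il1rap and Il1rl1, and the inflammasome sensor Nlrp3. They are 10 of the 45777 genes in that table, and each was found once. All grafts were made from 1 cell line, B16F10, a pigmented mouse melanoma line. The sample labels give hosts of the genotype Foxn1-/- at an age of 8 weeks for all samples, without a treatment, and the groups were 3 tumors removed from the footpad and 3 removed from the flank, each sequenced as 1 total RNA library. Foxn1-/- hosts lack a working thymus and have few T cells, which limits both groups alike as a model of immunity. The authors counted between 46529649 and 66364366 reads per tumor on genes. The study describes B16F10 grafts in the flank and footpad of the same mouse, both in C57BL/6J and in Foxn1-null mice. It also describes grafts with a reporter plasmid in Foxn1-null mice. The methods give a younger age than the labels, but as the age at injection. The study does not say which of these grafts were sequenced, and the labels were followed here. Nothing in the labels ties a footpad tumor to a flank tumor of the same mouse, and p-values measure the spread between these tumors only. The study counts mice where it compares expression between the sites, so pairs from the same mouse are possible. The main fit treated the tumors as unpaired. Melanoma genes marked every library, with the pigment cell genes Pmel and Dct at 2400 CPM or more, while Foxn1 had 8 reads in footpad replicate 2 and 0 reads in the other 5 tumors. Where 3 values are given for a site, they follow the order of replicates 1, 2 and 3.

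Interleukin-1 signals are made by damaged or infected tissue and by myeloid cells. IL-1 alpha and IL-1 beta both bind the receptor IL1R1, which recruits the shared accessory chain IL1RAP and turns on NF-kappaB through MYD88, while the antagonist IL1RN occupies the same receptor without signaling and IL1R2 is a decoy that binds ligand and lacks the signaling domain. IL-33 is stored in the nuclei of stromal, endothelial and epithelial cells and is read by IL1RL1, also named ST2, again with IL1RAP. NLRP3 assembles the inflammasome, in which caspase-1 cuts the precursors of IL-1 beta and IL-18 into their active forms. RNA levels say nothing about that cleavage.

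The clearest difference between the sites lay in the pair of IL-33 and its receptor. Il33 and Il1rl1 were the 2 of the 10 members that passed both thresholds, a minimum of 2-fold and an edgeR p below 0.05 after adjustment over all genes, and both were higher in footpad tumors, against 2.89% of all 17210 genes tested that were called higher. No member was called lower by edgeR, against 0.872% of all genes, although 1 member, Il18, had an unadjusted p under 0.05 and was called lower by DESeq2. By the fitted values alone, 7 members were at least 2-fold higher in the footpad (13.0% of all genes) and 1 was at least 2-fold lower (4.25% of all genes). Without a test, the lowest footpad tumor exceeded the highest flank tumor for 5 members (17.5% of all genes), and the order was the opposite for 1 (14.9% of all genes). The median log2 fold change of the 10 members was 2.52, beside -0.0042 over all genes tested. Only genes that passed a filter on low counts were tested. Il1a, Il1r2, Il1rl1 and Nlrp3 passed it only with the footpad tumors counted, which favored a higher footpad level. With same-numbered tumors paired as a block, neither Il33 nor Il1rl1 was called (adjusted p = 0.132 and 0.160 from edgeR).

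The windows around the RefSeq transcription starts of these 2 called genes are printed because both genes differed between the sites. Each runs from 250 bases before to 50 bases after a start in GRCm38.p6 and is read on the plus strand. Capitals mark matches on either strand to the AP-1 motif TGANTCA, the C/EBP motif TTGCNNAA, the GATA motifs AGATAA and TGATAA, and the NF-kappaB consensus, which were picked after the windows had been read.
Il1rl1, chr1:40429320-40429619: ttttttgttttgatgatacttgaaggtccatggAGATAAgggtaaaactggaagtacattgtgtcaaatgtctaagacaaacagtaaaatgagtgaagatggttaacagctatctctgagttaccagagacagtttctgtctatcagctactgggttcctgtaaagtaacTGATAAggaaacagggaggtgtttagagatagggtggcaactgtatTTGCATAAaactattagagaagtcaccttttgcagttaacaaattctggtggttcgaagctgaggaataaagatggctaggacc
Il1rl1, chr1:40439379-40439678: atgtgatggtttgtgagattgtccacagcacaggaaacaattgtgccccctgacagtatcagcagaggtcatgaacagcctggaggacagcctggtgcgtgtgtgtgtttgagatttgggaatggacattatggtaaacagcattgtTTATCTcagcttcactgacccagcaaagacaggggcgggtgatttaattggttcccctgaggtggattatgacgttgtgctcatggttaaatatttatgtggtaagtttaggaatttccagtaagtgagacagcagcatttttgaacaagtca
Il33, chr19:29924863-29925162: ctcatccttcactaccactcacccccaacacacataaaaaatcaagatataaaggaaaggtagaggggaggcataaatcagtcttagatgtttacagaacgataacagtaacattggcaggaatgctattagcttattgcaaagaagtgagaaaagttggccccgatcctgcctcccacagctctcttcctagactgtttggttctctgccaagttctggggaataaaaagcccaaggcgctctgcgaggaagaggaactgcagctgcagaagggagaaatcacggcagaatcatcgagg
Il33, chr19:29945540-29945839: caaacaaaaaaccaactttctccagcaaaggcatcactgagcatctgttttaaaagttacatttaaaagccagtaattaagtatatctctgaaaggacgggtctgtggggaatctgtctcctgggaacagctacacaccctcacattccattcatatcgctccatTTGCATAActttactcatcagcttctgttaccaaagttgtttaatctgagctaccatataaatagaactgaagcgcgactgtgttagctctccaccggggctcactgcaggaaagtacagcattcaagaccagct

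The upstream window of Il1rl1 held 2 matches to the GATA motifs, 217 and 80 bases before the start, and 1 match to the C/EBP motif 34 bases before it. The downstream window held 1 GATA match, 103 bases before its start. Of the Il33 windows, the second held 1 C/EBP match, 85 bases before the start, and the first held no match to these motifs. The C/EBP motif was found in 10.8% and the GATA motifs in 18.6% of all 32851 RefSeq windows of this length. All 10 members had at least 1 window, 16 in all, of which 3 held the C/EBP motif, 4 a GATA motif, 2 the AP-1 motif and 2 the NF-kappaB consensus. The last 2 motifs occurred in 7.81% and 8.46% of all windows. A match of letters is a description of the window and not a bound site.

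Il1rl1, which encodes the IL-33 receptor ST2, had the largest fold change of the members. The gene (ID 17082) spans positions 40404864 to 40465418 of chromosome 1. It measured 26.2, 2.83 and 87.6 CPM, the read count relative to the scaled library size, across footpad tumors versus 0.0862, 0.872 and 0.0639 CPM across flank tumors. Every footpad tumor was above every flank tumor, although the footpad tumors themselves spread over a 31.0-fold range. The flank levels rested on 5, 51 and 4 reads, so that flank replicates 1 and 3 were close to the detection limit of 3 reads. The log2 fold change was 6.83 with a standard error of 1.47, at an adjusted p of 0.0448 by the quasi-likelihood test of edgeR. It fell to 5.40 when footpad replicate 3 was left out and reached 8.98 when flank replicate 2 was, and among the fits without 1 tumor only the one without footpad replicate 2 kept an adjusted p under 0.05 from edgeR (0.0206). The gene makes a membrane form and a soluble form of the receptor, which the gene counts pool.

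Il33, the nuclear alarmin that ST2 binds, differed less between tumors of a site. The gene (ID 77125) spans positions 29925113 to 29960718 of chromosome 19. Its level was 15.9, 4.97 and 13.7 CPM across footpad tumors versus 0.379, 1.83 and 1.50 CPM across flank tumors. The lowest footpad tumor, replicate 2, was still above the highest flank tumor. The log2 fold change was 3.21 with a standard error of 0.66, at an adjusted p of 0.0397 by edgeR, with 11.5 ± 5.77 CPM in the footpad and 1.24 ± 0.761 CPM in the flank (SD, n = 3 each). Across the fits without 1 tumor it stayed between 2.78 and 3.60, with an adjusted p under 0.05 from edgeR in 1 of 6 of them (0.0271 without footpad replicate 2). On FPKM, the deposited values scaled for length and depth, the ratio of receptor to ligand, Il1rl1 to Il33, was 1.32, 0.446 and 5.02 across footpad tumors versus 0.110, 0.284 and 0.0300 across flank tumors. The receptor was thus high relative to its ligand in every footpad tumor compared with every flank tumor.

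Cells known for ST2 were looked for by their markers. The mast cell genes Cpa3, Mcpt4 and Cma1, which encode granule proteases, reached at most 0.239, 0.0875 and 0.163 CPM in any tumor. Of the T cell and innate lymphoid genes, Cd3e had at most 0.0408 CPM and Gata3 at most 0.321 CPM, and the type 2 cytokine genes Il5 and Il13 had 0 reads in all 6 tumors. Among other markers of these cells, Tpsab1, Il7r and Areg did not overlap between the sites, with the footpad values on top. They were 1 of the 4 tested mast cell markers and 2 of the 3 tested lymphoid ones. Of all genes, 17.5% had this order. The tryptase gene Tpsab1 measured 0.449, 0.452 and 0.265 CPM across footpad tumors versus 0, 0.239 and 0 CPM across flank tumors, at an adjusted p of 0.305 by edgeR. Il7r, the interleukin-7 receptor of lymphoid cells, measured 3.59, 1.27 and 3.88 CPM across footpad tumors versus 0.914, 1.01 and 0.639 CPM across flank tumors, at an adjusted p of 0.0757 by edgeR and 0.00863 by DESeq2. The part of these cells in the level of Il1rl1 was not tested. Of all 10 mast cell markers, 4 were tested and 0 were called by edgeR or DESeq2, with 1, Hdc, at an unadjusted p under 0.05 from edgeR. Their sum ran from 5.46 to 35.1 CPM in footpad and from 5.67 to 8.30 CPM in flank tumors, most of it Kit and Hdc, which other cells also express. Of all 12 T cell and innate lymphoid markers, 3 were tested and 4 had 0 reads in every tumor, and their sum, nearly all of it Rora, ran from 39.4 to 63.0 CPM in footpad and from 47.7 to 71.0 CPM in flank tumors. Areg, which encodes the growth factor amphiregulin, was the 1 gene of that list called by edgeR, while DESeq2 called 2, Areg and Il7r. Areg had 0.471, 0.175 and 0.531 CPM across footpad tumors and 0.0342 CPM or less in each flank tumor (adjusted p = 0.0491 from edgeR). It passed the filter on low counts through the footpad tumors alone, which fixed its direction. Tpsab1 passed the filter only with the footpad tumors counted, which favored a higher footpad level.

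**Figure D1:**
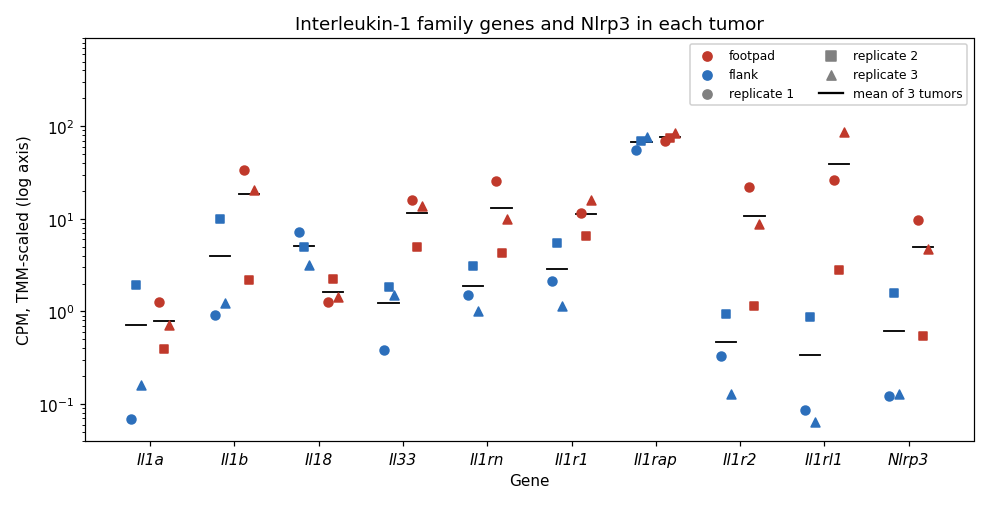
Level of each member in each tumor, in TMM-scaled CPM on a log axis, with flank tumors in blue, footpad tumors in red, the marker shape giving the replicate and a black line at the mean of 3 tumors. Il1rl1, Il33, Il1r2, Il1rn and Il1r1 had all 3 footpad points above the flank points, Il18 had them below, and the sites overlapped for Il1a, Il1b, Il1rap and Nlrp3.

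Of the agonists of IL1R1, Il1b was the more abundant, and both agonists overlapped between the sites. Il1b (ID 16176) and Il1a (ID 16175) are neighbors on chromosome 2, at 129364569 to 129371164 and 129299609 to 129310186. Il1b measured 33.5, 2.20 and 20.3 CPM across footpad tumors versus 0.914, 9.89 and 1.23 CPM across flank tumors. Footpad replicate 2 was below flank replicate 2, and the log2 fold change of 2.22 came with a standard error of 1.14, at an adjusted p of 0.266 by edgeR. Il1a, whose product is active without cleavage, was at 1.26, 0.394 and 0.715 CPM across footpad tumors versus 0.0690, 1.92 and 0.160 CPM across flank tumors. Flank replicate 2 thus held the highest Il1a of all tumors and the others of its site the lowest. The log2 fold change of Il1a was 0.13 with a standard error of 1.10, at an adjusted p of 0.952 by edgeR, and it turned to 2.74 without flank replicate 2 and to -0.37 without footpad replicate 1. On FPKM, Il1a reached between 0.0241 and 0.135 of the level of Il1b in the 6 tumors, and the sites overlapped in this ratio.

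Il1rn, the receptor antagonist, did not overlap between the sites. The gene (ID 16181) lies on chromosome 2 at 24336860 to 24351491. It was at 25.4, 4.27 and 9.96 CPM across footpad tumors versus 1.52, 3.06 and 1.02 CPM across flank tumors. Its log2 fold change was 2.82 with a standard error of 0.70, at an adjusted p of 0.0610 by edgeR and 9.2e-05 by DESeq2. Without footpad replicate 2 the adjusted p was 0.0308 from edgeR. The ratio of antagonist to agonist on FPKM, Il1rn to Il1b, was 0.429, 1.08 and 0.277 across footpad tumors versus 0.921, 0.174 and 0.461 across flank tumors. The highest ratio was that of footpad replicate 2 and the lowest that of flank replicate 2, so the sites overlapped and the balance of the 2 RNAs was not separated by site.

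Neither the decoy nor the signaling receptor of IL-1 was called by edgeR, and neither overlapped between the sites. Il1r2 (ID 16178) starts at 40084692 and ends at 40125230 of chromosome 1, and Il1r1 (ID 16177) runs from 40222480 to 40316201. Il1r2 was at 21.9, 1.14 and 8.90 CPM across footpad tumors versus 0.328, 0.941 and 0.128 CPM across flank tumors. Its flank levels rested on 19, 55 and 8 reads. The gap between the lowest footpad tumor and the highest flank tumor was narrow, and these were replicate 2 of each site. Its log2 fold change was 4.51 with a standard error of 1.13, at an adjusted p of 0.0629 by edgeR and 0.00321 by DESeq2, and the adjusted p was 0.0242 from edgeR without footpad replicate 2. Il1r1 was at 11.5, 6.45 and 16.2 CPM across footpad tumors versus 2.14, 5.42 and 1.13 CPM across flank tumors. Again replicate 2 of each site came closest to the other site. Il1r1 had a log2 fold change of 1.97 with a standard error of 0.60, at an adjusted p of 0.0957 by edgeR and 0.00409 by DESeq2, and an adjusted p of 0.0447 from edgeR without flank replicate 2. On FPKM, the ratio of decoy to signaling receptor, Il1r2 to Il1r1, was 5.94, 0.548 and 1.88 across footpad tumors versus 0.410, 0.515 and 0.251 across flank tumors. The decoy exceeded the signaling receptor per length in footpad replicates 1 and 3 and in none of the other 4 tumors.

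Il1rap, the chain that IL-1 and IL-33 receptors share, had the smallest fold range between tumors of a site and the highest mean level of the members. In single tumors it was not always first, since Il1rl1 exceeded it in footpad replicate 3 (24.6 against 17.9 FPKM) and Il1b in footpad replicate 1 (19.6 against 13.3 FPKM). The gene (ID 16180) lies on chromosome 16 at 26581509 to 26730128. It ran from 69.3 to 85.2 CPM in footpad tumors and from 55.1 to 77.2 CPM in flank tumors, and the sites overlapped. The log2 fold change was 0.19 with a standard error of 0.16, at an adjusted p of 0.504 by edgeR, and it lay between 0.06 and 0.30 in the fits without 1 tumor. The receptor-specific chains thus varied over a wide range beside an accessory chain at a nearly level amount.

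Il18 was the 1 member with a lower fitted level in footpad tumors. It encodes an IL-1 family cytokine that caspase-1 activates, and it was at 1.26, 2.22 and 1.43 CPM across footpad tumors versus 7.17, 4.98 and 3.21 CPM across flank tumors. The gene (ID 16173) lies on chromosome 9 at 50554700 to 50581841. All 3 footpad tumors were below all 3 flank tumors. The log2 fold change was -1.64 with a standard error of 0.39, at an adjusted p of 0.0565 by edgeR and 0.00148 by DESeq2, between -1.93 and -1.32 in the fits without 1 tumor. The reads behind these levels numbered 56 to 152 in footpad and 201 to 416 in flank tumors.

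Nlrp3, the inflammasome sensor, followed Il1b from tumor to tumor. The gene (ID 216799) lies on chromosome 11 at 59541569 to 59566955. It was at 9.74, 0.540 and 4.70 CPM across footpad tumors versus 0.121, 1.57 and 0.128 CPM across flank tumors. Footpad replicate 2 was below flank replicate 2, so the sites overlapped as they did for Il1b. The log2 fold change was 3.03 with a standard error of 1.26, at an adjusted p of 0.188 by edgeR, and it was 5.29 without flank replicate 2. In centered log2 CPM over the 6 tumors, the root mean square difference between Nlrp3 and Il1b was 0.466, smaller than that between Il1b and any other member.

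**Figure D2:**
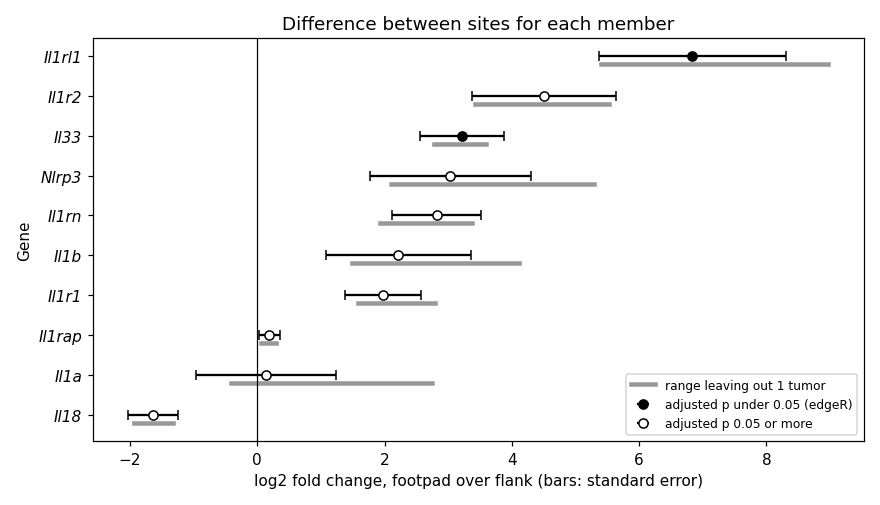
Log2 fold change of footpad over flank tumors for each member from edgeR, with bars of 1 standard error, filled points for an adjusted p under 0.05, and a gray line for the range when 1 tumor was left out. Il1rl1 at 6.83 and Il33 at 3.21 were past the threshold, Il18 lay at -1.64, and the gray line of Il1a crossed 0.

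DESeq2 called more members than edgeR from the same counts. It called 5 higher, namely Il1rl1, Il33, Il1r2, Il1rn and Il1r1, and 1 lower, Il18, against 6.71% and 2.05% of all genes. In the edgeR fit, 6 members had an unadjusted p under 0.05 and a higher level, Nlrp3 being the sixth, and 1 had a lower level. Each of them also changed at least 2-fold, as did 1577 higher and 486 lower genes of all 17210 at this p. The 6 called by DESeq2 are the 6 members whose sites did not overlap.

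Compared per length, Il1rap led the members with a mean of 14.8 FPKM over the 6 tumors, followed by Il1b with 7.10, Il1rl1 with 5.39, Il1r2 with 3.09, Il1rn with 2.63, Il18 with 2.44, Il33 with 2.19, Il1r1 with 1.30, Nlrp3 with 0.604 and Il1a with 0.331 FPKM. Over all 6 tumors, no 2 neighbors in this order were apart, since the ranges of each pair overlapped. Within the flank tumors, Il1rap at 10.8 FPKM or more stood above Il1b, which reached at most 6.85 FPKM. Il1b at 0.547 FPKM or more stood above Il1rl1 there, which reached at most 0.198 FPKM. Il18 at 2.26 FPKM or more stood above both of its neighbors there, with Il1rn at 1.19 FPKM and Il33 at 0.697 FPKM at most. Within the footpad tumors the order of Il18 and Il33 was the opposite, since Il33 at 1.83 FPKM or more stood above Il18 at 1.69 FPKM or less, and no other neighbors were apart. The place of Il18 in the mean order thus rested on the flank tumors, with a mean of 3.70 FPKM there and 1.19 FPKM in the footpad.

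The tumors of a site did not share 1 level of the family. Footpad replicate 1 had the highest level among footpad tumors of 6 members (Il1a, Il1b, Il1rn, Il1r2, Il33 and Nlrp3) and footpad replicate 3 of 3 (Il1r1, Il1rap and Il1rl1), while footpad replicate 2 had the lowest level of 8. Among flank tumors, replicate 2 had the highest level of the same 8 members, leaving out Il1rap and Il18. The libraries differed in other cells too. Summed neutrophil markers, led by the calprotectin genes S100a8 and S100a9, were at 377, 7.19 and 183 CPM across footpad tumors versus 20.5, 31.2 and 4.76 CPM across flank tumors. Of these 11 markers 9 were tested and 0 were called by edgeR, while DESeq2 called 2, against 6.71% of all genes. At an unadjusted edgeR p under 0.05, 7 were higher, each at least 2-fold, beside 1577 of all 17210 genes at that p and fold. The footpad order of the summed neutrophil markers, replicates 1, 3 and 2, was also that of Il1a, Il1b, Il1rn, Il1r2, Il33 and Nlrp3. In the flank their order of replicates 2, 1 and 3 was that of Il1rn, Il1r2, Il1r1 and Il1rl1, while Il1a, Il1b, Il33 and Nlrp3 had the order 2, 3 and 1. For Il1rl1 (5 and 4 reads) and Nlrp3 (7 and 8 reads), flank replicates 1 and 3 differed by too few reads to be ordered. In the footpad, Il1r1 and Il1rl1 had the order 3, 1 and 2, unlike the neutrophil markers. In whole tumor RNA, more cells of a type and more RNA per cell cannot be told apart.

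Markers of other cells differed between the tumors as well, not all of them in the order of the members. Macrophage and monocyte markers summed to between 272 and 319 CPM in footpad and between 35.4 and 190 CPM in flank tumors, with flank replicate 2 the highest of its site. Of these 12 markers 12 were tested and 1, Cd68, was called higher by edgeR, while DESeq2 called 4 higher. The fibroblast sum was between 2742 and 3757 CPM in footpad and between 127 and 434 CPM in flank tumors. Of its 10 markers, among them Pdgfra, Dcn and Col1a1, edgeR called 7 higher and DESeq2 8. Endothelial markers, among them Pecam1, summed to between 312 and 351 CPM in footpad and between 173 and 212 CPM in flank tumors. Of these 10 markers, edgeR called 3 higher and DESeq2 6. Keratinocyte markers were at 679 CPM and skeletal muscle markers at 545 CPM in footpad replicate 2, and at most at 44.5 and 63.8 CPM in any other tumor. Of 11 keratinocyte and 10 muscle markers edgeR called 0, with 7 and 0 higher at an unadjusted p under 0.05 and 3 and 0 called by DESeq2. Of all genes tested, edgeR called 2.89% higher and DESeq2 6.71%. At an unadjusted edgeR p under 0.05, 1577 of all 17210 genes were at least 2-fold higher, a fold that those 7 keratinocyte markers also reached. Melanocyte markers summed to between 10110 and 18760 CPM in footpad and between 14900 and 25660 CPM in flank tumors, with 0 of 10 called by edgeR or DESeq2 and 1, Tyr, with an unadjusted p under 0.05. The part of these cells in the levels of the members was not tested. Without footpad replicate 2, which stood apart by its keratinocyte and muscle genes, edgeR called 4 members higher (Il1rl1, Il33, Il1r2 and Il1rn) and 1 lower (Il18), against 3.62% and 1.12% of the 17639 genes tested in that fit. Its keratinocyte and muscle signal came with the lowest footpad level of both called members.

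**Figure D3:**
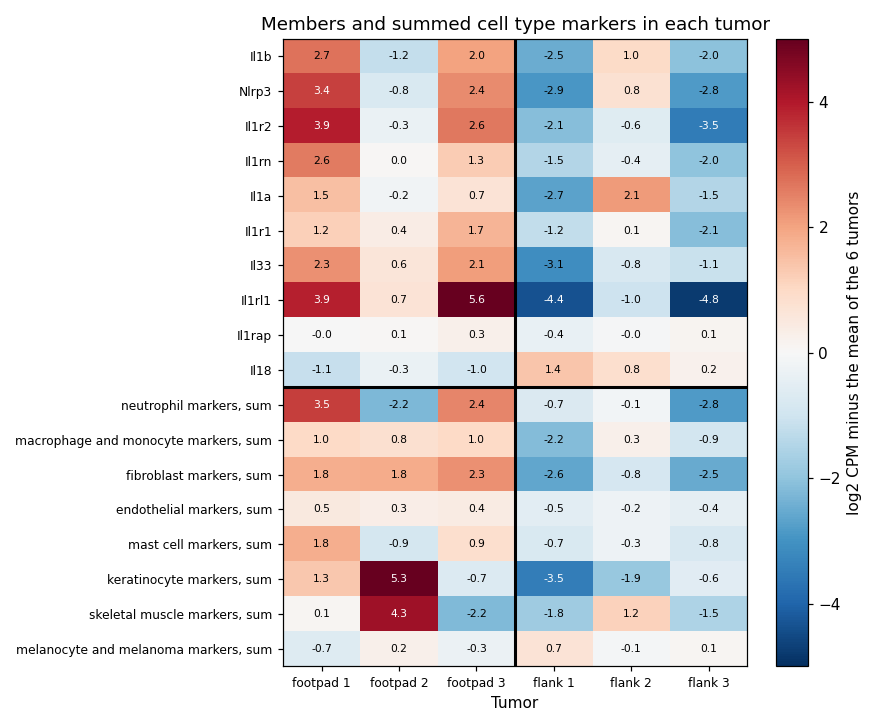
Centered log2 CPM of the 10 members and of the summed markers of 8 cell types in each tumor, where red is above and blue below the mean of the 6 tumors and the number is the value in each cell. Il1b, Nlrp3, Il1r2 and the neutrophil markers shared the order of footpad replicates 1, 3 and 2, and the keratinocyte and muscle markers stood out in footpad replicate 2.

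For 4 members the 3 genes with the most similar profile were looked up among genes with a mean of at least 1 CPM, by the root mean square difference of centered log2 CPM over the 6 tumors. Among the genes nearest to Nlrp3 were Clec4e (0.392), which encodes a receptor of myeloid cells, and Acod1 (0.462), the enzyme that makes itaconate in activated macrophages. Il1b was nearest to Hdc (0.514), the histamine-forming enzyme, Gm41107 (0.520) and the chemokine-like receptor gene Ccrl2 (0.528). Il1r1 had closer neighbors, namely Cfb (0.211), which encodes complement factor B, the chemokine gene Cxcl1 (0.227) and the monocyte gene Ly6c2 (0.229). Il1rl1 had none within 1, the nearest being Arsj (1.11), the matrix gene Ltbp2 (1.15) and the macrophage gene Chil3 (1.26). This measure grows with the range of a gene's levels, which was widest for Il1rl1.

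The receptor genes lie together on chromosome 1 of GRCm38, in the order Il1r2, Il1r1, Il1rl2, Il1rl1, Il18r1 and Il18rap, between positions 40084692 and 40551707. All 5 of these 6 that passed the filter on low counts had a higher fitted level in footpad tumors, with log2 fold changes from 1.97 in Il1r1 to 6.83 in Il1rl1. Over all genes tested, 13.0% had a fitted level at least 2-fold higher in the footpad. Apart from Il1r1, each passed only with the footpad tumors counted, so the filter itself favored a higher footpad level. Il1rl2, the IL-36 receptor, was at 2.87, 3.41 and 3.21 CPM across footpad tumors versus 0.103, 0.872 and 0.447 CPM across flank tumors (adjusted p = 0.0581 from edgeR). It was the receptor gene of this group with the least spread among footpad tumors. Il18rap, the accessory chain of the IL-18 receptor, was at 7.77, 0.350 and 2.86 CPM across footpad tumors versus 0, 0.667 and 0.160 CPM across flank tumors, while Il18r1, which binds IL-18 itself, stayed at or below 0.103 CPM in all tumors and was not tested. Beyond the receptors, the ion exchanger gene Slc9a4, singled out after its values were seen, measured 0.831, 0.204 and 0.490 CPM across footpad tumors and had 0 reads in the flank tumors (adjusted p = 0.0365 from edgeR). It passed the filter through the footpad tumors alone, which fixed its direction. On the other side Map4k4 had a log2 fold change of -0.15 (adjusted p = 0.637 from edgeR).

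Among 67 other genes of the pathway, in 4 lists, 59 were tested. EdgeR called 2 higher and 1 lower, against 2.89% and 0.872% of all genes, and its few calls alone do not set the lists apart. DESeq2 called 13 higher and 1 lower, against 6.71% and 2.05%, so its higher calls were more frequent than over all genes. The genes called by edgeR were Ccl2, Ptges and Sigirr. Of 12 other family ligands and receptors, 6 were tested and Sigirr, an orphan receptor of the family that restrains IL-1 and Toll-like receptor signals, was lower, at 2.67, 4.30 and 2.84 CPM across footpad tumors versus 14.2, 7.24 and 8.29 CPM across flank tumors (log2 fold change -1.59, with 0.0441 as the adjusted p of edgeR). All 3 footpad tumors were below all 3 flank tumors. Il36rn, the antagonist of the IL-36 receptor, was at 6.69 CPM in footpad replicate 2 and at most at 0.240 CPM in the other tumors, and did not pass the filter.

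No partner of Nlrp3 in the inflammasome was called. Of 14 inflammasome and pyroptosis genes 13 were tested, and 0 were called by edgeR or by DESeq2, with 0 at an unadjusted p under 0.05 in either direction from edgeR. Their median log2 fold change was 0.04. Mefv and Aim2, the sensors pyrin and AIM2 that had the smallest p of the list, had log2 fold changes of 2.83 and 0.88 (adjusted p = 0.235 and 0.269 from edgeR). Casp1 was at 1.21, 2.61 and 1.23 CPM across footpad tumors versus 0.966, 3.44 and 0.559 CPM across flank tumors, with replicate 2 the highest of each site. Pycard, the adaptor ASC between sensor and caspase, was at 1.37, 2.89 and 0.980 CPM across footpad tumors versus 6.12, 1.85 and 0.751 CPM across flank tumors. Both genes overlapped between the sites, and flank replicate 1 held the highest Pycard.

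Of 23 genes that carry the signal from the receptors, 23 were tested and 0 were called by edgeR, while DESeq2 called 4 higher and 7 had an unadjusted p under 0.05 from edgeR, all with a higher level in footpad tumors. Of all 17210 genes, 1577 had an unadjusted p under 0.05 from edgeR and were at least 2-fold higher. Nfkb2, Rela and Relb did not reach that fold. The median log2 fold change of the 23 genes was 0.23. Nfkb2, which encodes an NF-kappaB subunit, had an adjusted p under 0.05 from edgeR (0.0399) at a log2 fold change of 0.72, less than the fold asked for. Myd88, the adaptor of the receptors, was at 21.9, 16.3 and 18.8 CPM across footpad tumors versus 6.52, 11.7 and 9.19 CPM across flank tumors (log2 fold change 1.06, with 0.0530 as the adjusted p of edgeR). The sites did not overlap for either gene.

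Of 18 genes known to respond to IL-1, 17 were tested and 2 were called higher, against 2.89% of all genes. DESeq2 called 7, against 6.71% of all genes, and 9 had an unadjusted p under 0.05 from edgeR. Those 9 were also at least 2-fold higher, beside 1577 of all 17210 genes at that p and fold. All 17 had a higher fitted level in footpad tumors and their median log2 fold change was 2.13, beside -0.0042 over all genes tested. Il6, Cxcl2, Cxcl5, Ptgs2, Lcn2, Csf3 and Sele passed the filter on low counts only with the footpad tumors counted, which favored a higher footpad level. Ptges, the enzyme that finishes prostaglandin E synthesis, was at 7.50, 3.33 and 7.04 CPM across footpad tumors versus 1.26, 1.64 and 0.831 CPM across flank tumors (log2 fold change 2.26, with 0.0333 as the adjusted p of edgeR). The chemokine gene Ccl2 had a log2 fold change of 3.10 (adjusted p = 0.0139 from edgeR). These genes respond to other signals too, and several are made by the same myeloid and stromal cells whose markers are given above.

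**Figure D4:**
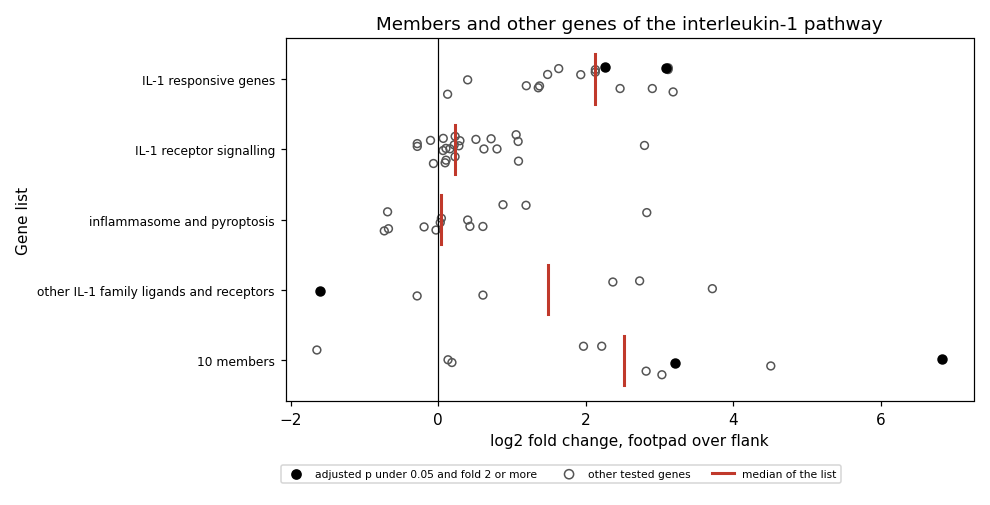
Log2 fold change of footpad over flank tumors for the 10 members and for the tested genes of 4 pathway lists, with filled points for called genes and a red line at each median. The medians were 2.52 for the members, 1.49 for other family genes, 0.04 for inflammasome genes, 0.23 for signaling genes and 2.13 for responsive genes.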

How the data were processed

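Total RNA of 3 footpad and 3 flank tumors was analyzed, grouped by the sample titles. Per the labels and the methods, the authors trimmed reads with Trimmomatic, aligned them with HISAT2 2.1.0 to mm10 and deposited whole read counts per RefSeq gene, without normalization. The deposited FPKM values were normalized by the authors to gene length and library size. The counting program and its strand setting are not given in the sources used here.

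Counts were fitted across all genes with edgeR 4.0.16 under R 4.3.3 (TMM factors, filterByExpr at its defaults, glmQLFit, glmQLFTest, Benjamini-Hochberg adjustment). The filter left 17210 of 45777 genes, among them all 10 members. A called gene had a Benjamini-Hochberg value below 0.05 and moved at least 2-fold. CPM is the count relative to the TMM-scaled library, and 3 reads, the detection limit used, equaled 0.0438 to 0.0673 CPM. Standard errors were approximated as the log2 fold change over the square root of F. Tumors of a site differed by more than counting noise, with a chi-square of 58.6 or more per gene. Alternatives were DESeq2 1.42.0, other filters and scaling, limma 3.58.1 on log2(FPKM + 1) and log2(FPKM + 0.1), the replicate number as a block, and leaving out each tumor. Fits were tested on simulated data. Coordinates and promoter windows are from RefSeq, GRCm38.p6. Figures were drawn in Python 3.11.15.

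The members and gene lists were written from general knowledge and chosen with earlier results of these data known. The named genes are the members, the 3 most similar genes of 4 members, the called genes of each pathway list (or, where none was called, the 2 with the smallest p), and the first markers of each cell type list. Other genes named, such as Casp1, Pycard, Il36rn, Il18rap, Areg, Il7r, Tpsab1 and Slc9a4, were chosen after their values were seen. A gene that the rule names is not reported here.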

Additional observations from a re-analysis of the deposited data

How the results depend on the processing

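The number of members called depended on the tool and on single tumors. EdgeR called 2 members higher and 0 lower, and DESeq2 called 5 and 1, with 14 pathway genes in place of 3 and 1154 higher and 352 lower genes in place of 497 and 150. A filter of 10 counts in every tumor removed Il1a, Il1r2, Il1rl1 and Nlrp3, which were low in flank tumors, and 1 member, Il18, was then called lower and Il1rn joined Il33 as called higher. Il18 was also called lower with limma on log2(FPKM + 0.1). Limma on log2(FPKM + 1) called 1 member higher, Il33, and 271 higher and 95 lower genes overall. Without a minimum fold change, edgeR called 248 genes lower. With 1 tumor left out, between 0 and 4 members were called higher and between 0 and 1 lower, between 0 and 7 pathway genes, and between 0 and 639 higher and 0 and 197 lower genes. The fit without footpad replicate 3 called 0 genes, with 1459 higher and 420 lower genes at an unadjusted p under 0.05 and a fold of 2 or more. In every alternative that tested them, 9 of the members kept their direction; Il1a turned to -0.37 without footpad replicate 1, to -0.40 without flank replicate 1 and to -0.34 without flank replicate 3, and was 2.74 without flank replicate 2. No scaling moved the median of all genes by 0.1 or more.

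Same-numbered tumors did not deviate together, with correlations of 0.0544, -0.0965 and -0.115 across genes, and the labels do not say that a number marks a mouse. With the replicate block, 0 members and 0 genes were called in either direction. At an unadjusted edgeR p under 0.05 and 2-fold or more, 5 members were higher and 1 lower. Of all 17210 genes, 1378 were higher and 413 lower at those thresholds. The log2 fold change of Il1rl1 was 6.50 and that of Il33 3.27. The flank levels of Il1rl1, Il1r2, Nlrp3 and Il1a rested on 4 to 112 reads, which limits their fold changes.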
